A study of Mus musculus with 6 samples.

Results

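The muscle miRNAs described here are 7 mature miRNAs of mouse, chosen by name: mmu-miR-1a-3p, mmu-miR-133a-3p, mmu-miR-133b-3p, mmu-miR-206-3p, mmu-miR-208a-3p, mmu-miR-208b-3p and mmu-miR-499-5p. The species prefix is left out from here on. They are 7 of the 1881 mouse miRNAs with probes on the array, and 4 of the 388 that were bright enough to be compared between groups. They were measured in tumours grown from Hepa1-6 cells, a mouse hepatoma line, which had been inoculated into the right flank of C57BL/6 mice in a volume of 0.1 ml. The flank is a site where a growing tumour lies close to skeletal muscle of the body wall. The 3 GLE mice received an agent given in the labels only by that abbreviation, at 0.023 g in all each day, calculated for 10 g of body weight. The 3 model mice received 0.2 ml of 0.9% sodium chloride once a day for 28 days. All 6 mice carried the same graft, the age label reads 28 days in both groups, and each array held the RNA of 1 mouse, so that n = 3 per group throughout. The labels describe no group without a tumour, and no separate sample of muscle.

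Muscle miRNAs, often called myomiRs, are made at high level in striated muscle and at low level elsewhere. Mature miRNAs pair with target messages mainly through the seed, the bases near the 5′ end, and so miRNAs that share a seed share many predicted targets. miR-1 and miR-133a are processed from common transcripts in skeletal and cardiac muscle, where miR-1 favours differentiation of myoblasts and miR-133a is known for restraining it. miR-206 and miR-133b come from a second locus that is active in skeletal muscle and not in heart. miR-206 belongs to the miR-1 family and is known from satellite cells, regenerating fibres and neuromuscular junctions. miR-208a, miR-208b and miR-499 lie inside myosin heavy chain genes and are known from heart muscle, and the last of these, with miR-208b, also from slow skeletal fibres.

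The mature sequences of the members matched in RefSeq (GRCm38.p6, 5 of 7 members) are shown to make clear which ones share a seed, given in capitals (bases 2 to 8).
miR-206-3p: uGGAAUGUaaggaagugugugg
miR-133b-3p: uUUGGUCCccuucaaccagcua
miR-208a-3p: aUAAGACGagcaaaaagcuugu
miR-208b-3p: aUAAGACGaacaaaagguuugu
miR-499-5p: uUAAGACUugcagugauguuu

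In GRCm38.p6 these lie at chr1:20679055-20679076 on the plus strand (miR-206-3p), chr1:20682834-20682855 on the plus strand (miR-133b-3p), chr14:54949072-54949093 on the minus strand (miR-208a-3p), chr14:54975710-54975731 on the minus strand (miR-208b-3p) and chr2:155622893-155622913 on the plus strand (miR-499-5p). The seed UAAGACG is shared by 2 members, miR-208a-3p and miR-208b-3p. miR-499-5p has bases 2 to 7 (UAAGAC) in common with them and another base at position 8, so that these 3 form the group within myosin genes. Over their 22 bases miR-208a-3p and miR-208b-3p differ at 3 positions, G10A, A16G and C18U, counted from 1 at the 5′ end with the base of miR-208a-3p first. The seeds of miR-206-3p and miR-133b-3p occur in no other matched member, but miR-1a-3p and miR-133a-3p were not matched and so could not be compared here. The longer miR-1a-3p probe, of 21 bases, holds the full complement of the miR-206-3p seed. No probe of miR-133a-3p or miR-133b-3p holds that of the miR-133b-3p seed in full, so the probes do not settle this for the miR-133 pair.

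In the annotation of that assembly the genes Mir206 and Mir133b both lie within Lincmd1, a long non-coding RNA gene of muscle. Mir1a-1 and Mir133a-2 lie together within the host transcript Mir1a-1hg, and Mir1a-2 and Mir133a-1 lie together within Mir133a-1hg and Mib1. Mir208a lies within Myh6, the alpha cardiac myosin heavy chain gene, Mir208b within Myh7, the beta cardiac and slow skeletal one, and Mir499 within Myh7b. The array's own probe positions are on mm9: chr1:20669143-20669157 for the longer miR-206-3p probe and chr1:20672919-20672936 for that of miR-133b-3p. These spans, printed as given, are shorter than the probes themselves, which have 16 and 19 bases.

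What a probe can tell apart depends on the part of the miRNA it pairs with, and the longer probes of the skeletal pair are shown for that reason. Capitals mark bases that differ from the probe of the nearest relative, miR-1a-3p for miR-206-3p and miR-133a-3p for miR-133b-3p, with the probes set side by side from their first base.
miR-206-3p probe: CCacaCacttcCttac
miR-133b-3p probe: Tagctggttgaaggggacc

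The miR-206-3p probe covers bases 7 to 22 of the miRNA and differs from the miR-1a-3p probe at 4 of 16 bases. The miR-133b-3p probe covers bases 4 to 22 and differs from the miR-133a-3p probe at 1 of 18 bases, the first. How much miR-133a-3p the miR-133b-3p probe captures, or the reverse, was not tested, so the values of these 2 miRNAs may not be independent measurements. The miR-206-3p and miR-133b-3p probes differ at 14 of 16 bases.

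The 6 arrays were on 1 slide and were read in 1 scan. The GLE arrays all lay in one row of the slide and the model arrays all in the other, so slide row and group cannot be told apart. Each array had 56430 spots other than controls for 4415 probes, and 0 of these spots were saturated. The 75th percentile of the signal over the 636 probes detected on all arrays, which serves here as the measure of depth, was 203, 364 and 241 intensity units in GLE tumours 1 to 3 and 313, 231 and 211 in model tumours 1 to 3. The number of miRNAs detected was 396, 456 and 432 in GLE tumours and 458, 387 and 378 in model tumours. Their number limits the precision: with 3 arrays a group, the median half-width of a 95% interval on the difference was 0.54 on the log2 scale. Of the liver miRNA miR-122-5p, which is the leading miRNA of hepatocytes, a signal was detected on 2 of the 6 arrays.

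The skeletal and shared members were detected in every tumour, and the heart and slow-fibre members in none. For miR-1a-3p, miR-133a-3p, miR-133b-3p and miR-206-3p, 706 of 709 spots over 8 probes were well above background, with probe signals of 17.7 to 1007 intensity units. For miR-208a-3p, miR-208b-3p and miR-499-5p, 0 of 525 spots over 6 probes were well above background, with probe signals of -2.35 to 2.42. The mean signal of the negative control probes was -0.99 to 0.17 over the 6 arrays, and the dimmest detected probe of an array had 11.8 to 13.2. The heart and slow-fibre members therefore sat at the level of the negative controls, in GLE and model tumours alike. The number of members detected on all arrays was 4 also with Feature Extraction's own detection flag, and 4 when every used spot of a probe on an array had to be well above background. This is a statement of detection on this array and not of relative amount, since signals of different probes are not on one scale.

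**Figure D1:**
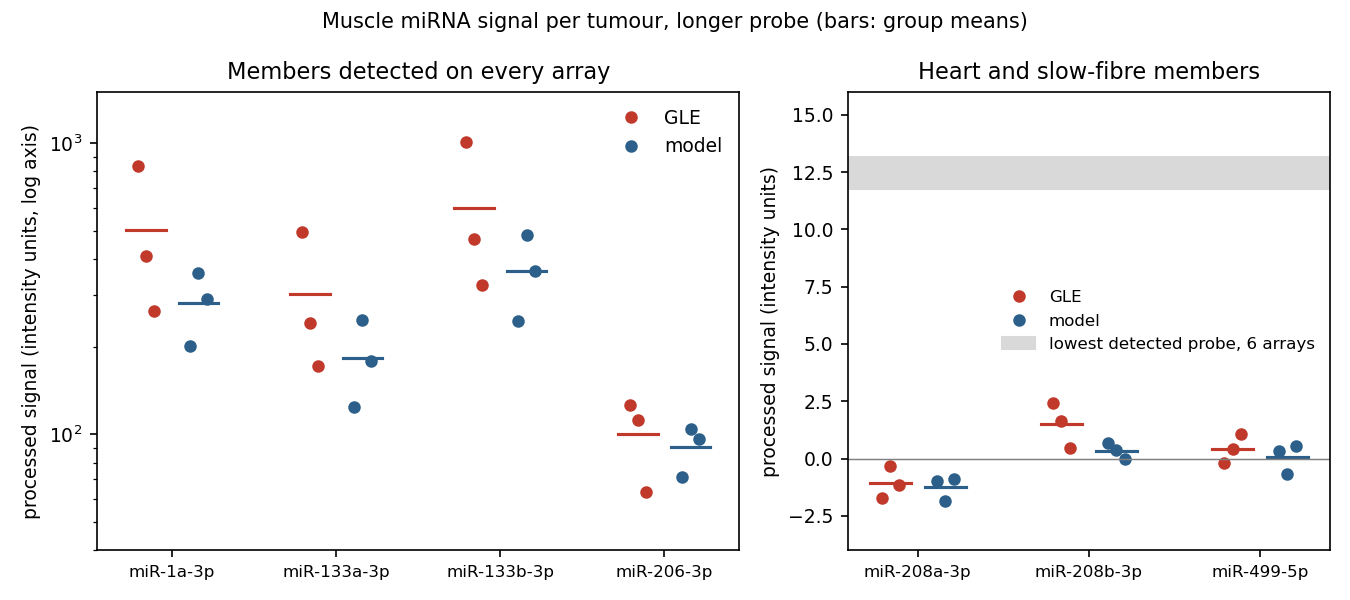
Processed signal of the longer probe of each member per tumour (points) and the group means (bars), with GLE in red and model in blue. The left panel has a log axis and holds the 4 members detected on every array, and the right panel has a linear axis and holds the 3 heart and slow-fibre members, with the dimmest detected probe of the arrays (11.8 to 13.2) as a grey band. The points of the 4 members on the left overlap between groups, and all points on the right lie below the band.

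The other arms of the hairpins and the close relatives were mostly not detected, those of the skeletal members included. Of the 11 other arms and close relatives, 10 (miR-1a-1-5p, miR-1a-2-5p, miR-1b-3p, miR-1b-5p, miR-133b-5p, miR-133c, miR-206-5p, miR-208a-5p, miR-208b-5p and miR-499-3p) were detected on 0 arrays by the rule on spots well above background, which 13 of 1752 spots were. All 13 of these spots belonged to miR-208a-5p, whose 2 probes had signals of 8.02 to 10.9 and which Feature Extraction's own flag called on 3 arrays. The arm with detected signal was miR-133a-5p, the arm opposite miR-133a-3p in the hairpin. Its 20-base probe had 31.4, 16.2 and 9.71 intensity units in GLE tumours 1 to 3 and 9.14, 14.8 and 10.71 in model tumours 1 to 3. By the rule on spots it was detected in GLE tumours 1 and 2 and in model tumour 2, that is on 3 arrays, and by Feature Extraction's flag on all 6, and it was not tested. Its highest value was in GLE tumour 1 and its lowest in model tumour 1, where the major arm also had its highest and lowest values.

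miR-1a-3p, the member known for driving myoblast differentiation, gave 838, 409 and 266 intensity units on its longer probe in GLE tumours 1 to 3 and 201, 357 and 293 in model tumours 1 to 3. After scaling each array by its 75th percentile and averaging its 2 probes on the log2 scale, its values were 0.33, -1.57 and -1.60 in GLE tumours and -2.39, -1.09 and -1.22 in model tumours. GLE tumour 1 was the highest of the 6 and model tumour 1 the lowest, and the other 2 GLE tumours lay below the other 2 model tumours, so the groups overlapped. The difference, GLE minus model, was 0.62 ± 0.59 on the log2 scale (SE; 95% interval -0.77 to 2.02), a fold of 1.54 with an interval of 0.585 to 4.04. The moderated test of limma with Benjamini-Hochberg adjustment over the 388 miRNAs gave an adjusted p of 0.937. On mm9 the longer probe is placed at chr2:180123802-180123822 and that of miR-133a-3p at chr2:180133146-180133163, and both have a second place on chromosome 18, so the arrays do not show which of the 2 loci of each the RNA came from.

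miR-133a-3p, made from the same transcripts as miR-1a-3p, gave 497, 241 and 172 intensity units in GLE tumours and 124, 247 and 179 in model tumours on its longer probe. Its scaled log2 values were 0.0069, -1.81 and -1.67 in GLE tumours and -2.50, -1.11 and -1.42 in model tumours. The order of the tumours had the same ends as for miR-1a-3p, with GLE tumour 1 highest and model tumour 1 lowest, and the groups overlapped. The difference was 0.52 ± 0.56 (SE; 95% interval -0.81 to 1.84; limma adjusted p = 0.937).

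miR-133b-3p, the skeletal relative of miR-133a-3p, gave 1007, 470 and 327 intensity units in GLE tumours and 246, 483 and 363 in model tumours on its longer probe. Its scaled log2 values were 0.88, -1.02 and -0.93 in GLE tumours and -1.71, -0.31 and -0.55 in model tumours. Here too GLE tumour 1 stood above all others and model tumour 1 below them. The difference was 0.50 ± 0.59 (SE; 95% interval -0.89 to 1.89; limma adjusted p = 0.937).

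miR-206-3p, the member known from satellite cells and regenerating fibres, had a smaller range over tumours than the other 3. Its longer probe gave 126, 112 and 63.1 intensity units in GLE tumours and 71.1, 104 and 96.7 in model tumours. Its scaled log2 values were -1.51, -2.43 and -2.74 in GLE tumours and -2.90, -1.93 and -1.80 in model tumours. GLE tumour 1 was again highest and model tumour 1 lowest after scaling, whereas in the unscaled signal the lowest tumour was GLE 3. The difference was -0.019 ± 0.41 (SE; 95% interval -0.98 to 0.94; limma adjusted p = 0.980), a fold of 0.987 with an interval of 0.506 to 1.93.

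None of the 4 detected members passed the test, and none had groups that did not overlap. Over all 388 miRNAs, 0 (0%) had an adjusted p under 0.05 by limma, with a smallest adjusted p of 0.937, and 6 (1.55%) had an unadjusted p under 0.05. Groups that did not overlap were found for 26 miRNAs (6.7%), 18 (4.64%) with GLE above and 8 (2.06%) with GLE below. Of the 4 detected members 3 had a positive difference, with a median of 0.51, beside 198 positive differences of 388 and a median of 0.0078 over all tested miRNAs. The 3 positive differences all rest on GLE tumour 1: without it they were -0.017 for miR-1a-3p, -0.064 for miR-133a-3p and -0.12 for miR-133b-3p. Without model tumour 1 they were 0.21, 0.11 and 0.073, and that of miR-206-3p was -0.36. The intervals allow a change of either sign that is larger than the estimates, so the data do not show that GLE left these miRNAs unaltered. In tumour RNA as measured here, a change in the number of cells that make a miRNA and a change in its amount per cell cannot be told apart. Which cells of the tumours made these miRNAs was not tested.

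**Figure D2:**
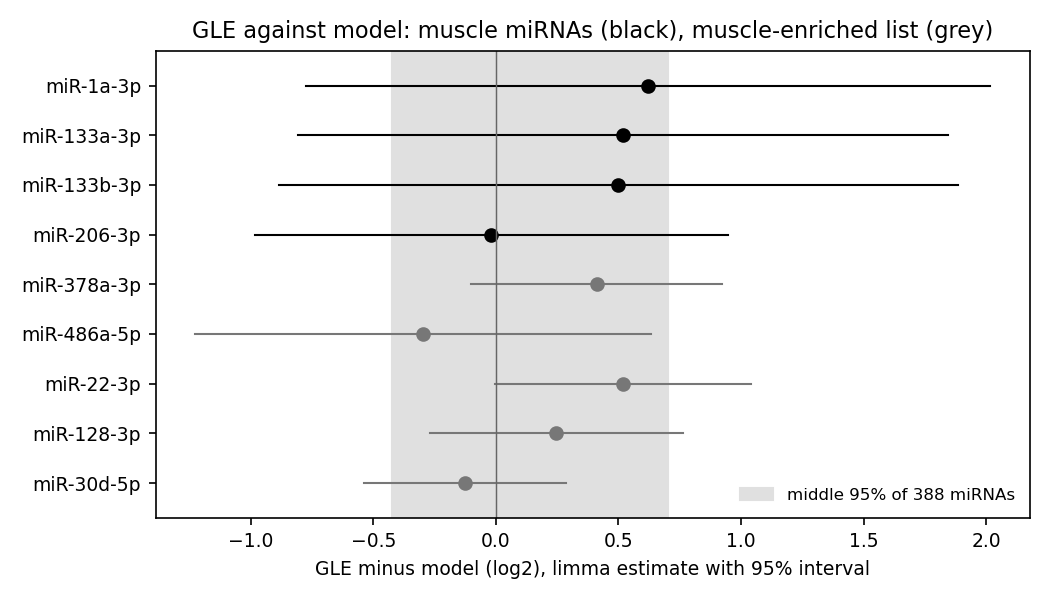
Difference GLE minus model on the log2 scale (points) with the 95% interval from limma (lines) for the 4 detected members in black and the 5 tested miRNAs of the muscle-enriched list in grey. The grey band holds the middle 95% of the differences of all 388 tested miRNAs, from -0.43 to 0.70, and every member's interval includes 0.

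The 2 probes of 3 members gave differences of like size. The difference was 0.61 on the shorter and 0.63 on the longer probe of miR-1a-3p, 0.47 and 0.56 for miR-133a-3p, and 0.46 and 0.54 for miR-133b-3p. For miR-206-3p the 2 probes had opposite signs at -0.070 and 0.032, both small beside its standard error of 0.41. A probe was represented by 12 to 15 used spots on an array, and the coefficient of variation over the spots of one probe was 1.30% to 23.8%.

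The spread between tumours was large for these miRNAs. The SD over the 6 tumours was 0.90 on the log2 scale for miR-1a-3p, 0.87 for miR-133b-3p, 0.84 for miR-133a-3p and 0.55 for miR-206-3p, beside a median of 0.28 over the 388 tested miRNAs and a 95th percentile of 0.77. Ordered from the widest spread, they ranked 9 (miR-1a-3p), 11 (miR-133b-3p), 15 (miR-133a-3p) and 55 (miR-206-3p) of 388. The highest tumour exceeded the lowest by 6.59-fold for miR-1a-3p, 6.02-fold for miR-133b-3p, 5.69-fold for miR-133a-3p and 2.61-fold for miR-206-3p. The standard error of a probe's mean over its spots on one array was at most 0.089 on the log2 scale (miR-1a-3p), a value that covers spot noise and not labelling, hybridisation or RNA input, which 1 array per tumour does not measure.

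Inside each group most of the spread came from 1 tumour. For miR-1a-3p the SD was 1.11 in GLE tumours and 0.72 in model tumours, and for miR-133a-3p 1.01 in GLE and 0.73 in model tumours. For miR-133b-3p it was 1.07 in GLE and 0.75 in model tumours, and for miR-206-3p 0.64 in GLE and 0.60 in model tumours. Without GLE tumour 1 the SD of the other 2 GLE tumours was 0.019 for miR-1a-3p, 0.10 for miR-133a-3p, 0.067 for miR-133b-3p and 0.22 for miR-206-3p. Without model tumour 1 the SD of the other 2 model tumours was 0.093 for miR-1a-3p, 0.22 for miR-133a-3p, 0.17 for miR-133b-3p and 0.089 for miR-206-3p. Leaving out the farthest tumour of a group lowers the SD of any miRNA. The other tested miRNAs were not compared in this way. Over the 5 tumours without GLE tumour 1 the SD of miR-1a-3p was 0.51 and its rank 78 of 388, and miR-133a-3p, miR-133b-3p and miR-206-3p ranked 75, 68 and 85. Over the 5 tumours without model tumour 1 the 4 members ranked 18 (miR-1a-3p), 31 (miR-133a-3p), 25 (miR-133b-3p) and 85 (miR-206-3p).

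The medians over all tested miRNAs were 0.33 in GLE and 0.17 in model tumours. Within the model group alone, where no treatment differed, the members ranked 12 (miR-133b-3p), 13 (miR-133a-3p), 16 (miR-1a-3p) and 22 (miR-206-3p) of 388 by SD. The highest model tumour exceeded the lowest 2.64-fold for miR-133b-3p and 2.14-fold for miR-206-3p.

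Depth moved with this pattern in part. GLE tumour 1, the highest for all 4 members, had the lowest 75th percentile of the 6 arrays (203), and model tumour 1, the lowest, had the highest but one (313). With no scaling between arrays the SDs were 0.72 for miR-1a-3p, 0.67 for miR-133b-3p, 0.64 for miR-133a-3p and 0.40 for miR-206-3p, with ranks of 38, 45, 55 and 164 in the same order. On the unscaled signal GLE tumour 1 was still the highest for all 4, and model tumour 1 the lowest for 3 of them. With quantile normalisation the ranks were 11, 13, 16 and 52. In the authors' deposited table the ranks were 30 for miR-1a-3p, 37 for miR-133b-3p, 35 for miR-133a-3p and 84 for miR-206-3p. The part of depth in the spread that remains was not tested.

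**Figure D3:**
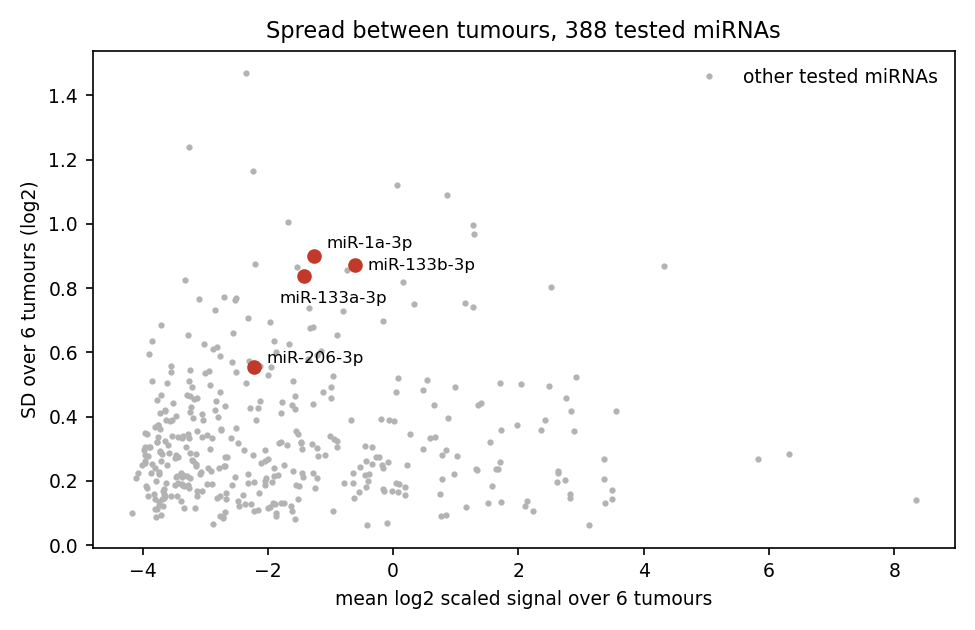
SD over the 6 tumours against the mean scaled signal, both on the log2 scale, for the 388 tested miRNAs (grey) with the 4 detected members in red. miR-1a-3p, miR-133b-3p and miR-133a-3p lie at SDs of 0.90, 0.87 and 0.84, above most miRNAs of like signal, and miR-206-3p lies lower at 0.55.

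The members varied together. Over the 6 tumours Pearson's r was 0.994 between miR-1a-3p and miR-133a-3p, 0.996 between miR-1a-3p and miR-133b-3p, and 0.999 between miR-133a-3p and miR-133b-3p. In exact permutation tests over all 720 pairings (two-sided), each of these had an adjusted p of 0.0204 over the 22 relations computed, with raw p of 0.00278, 0.00278 and 0.00139. With miR-206-3p, r was 0.88 for miR-1a-3p, 0.88 for miR-133a-3p and 0.90 for miR-133b-3p, and the exact permutation adjusted p was 0.0306 for each (raw p 0.00694, 0.00833 and 0.00833). Spearman's rho was 0.94 for miR-1a-3p with each of the other 3 and 1 for the miR-133 pair, with exact permutation p of 0.0167 and 0.00278 before adjustment. Between miR-206-3p and either miR-133 member it was 0.89, with an exact permutation p of 0.0333. By rank none of the 6 pairs passed after adjustment over the 22 relations, where exact permutation p was 0.0611 to 0.122. The longer probes of miR-133a-3p and miR-133b-3p differ at 1 of 18 bases, and capture of one by the other was not tested. The relation of this pair may therefore not be one of independent measurements.

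The size of r was recomputed on fewer tumours. Without the 2 tumours farthest from the median, r was 0.95 for miR-1a-3p with miR-133a-3p, 0.98 for miR-1a-3p with miR-133b-3p and 0.99 for the miR-133 pair. It was 0.92 for miR-206-3p with miR-1a-3p, 0.75 with miR-133a-3p and 0.83 with miR-133b-3p, over the 4 tumours that remain. With any 1 tumour left out, r was 0.985 to 1.00 among miR-1a-3p, miR-133a-3p and miR-133b-3p and 0.81 to 0.95 for the pairs with miR-206-3p. None of the 6 pairs then passed, with exact permutation adjusted p of 0.0611 to 0.288 over the 120 pairings of 5 tumours, whose smallest raw p is 0.00833. Pairs at that smallest raw p still had an exact permutation adjusted p of 0.0611 to 0.122. The tests on 5 tumours could therefore hardly pass, and they do not decide whether the relations hold. A correlation within each slide row, and so within each group, was not computed, because a row holds 3 arrays. The relations of miR-206-3p depended on the scaling. With no scaling r was 0.76 with miR-1a-3p (exact permutation adjusted p = 0.275), with quantile normalisation it was 0.86 (adjusted p = 0.0509), and with scaling on the labelling spike-ins it was 0.76 (adjusted p = 0.321). The 3 relations among miR-1a-3p, miR-133a-3p and miR-133b-3p passed under each of the 10 other settings, with r of at least 0.977.

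**Figure D4:**
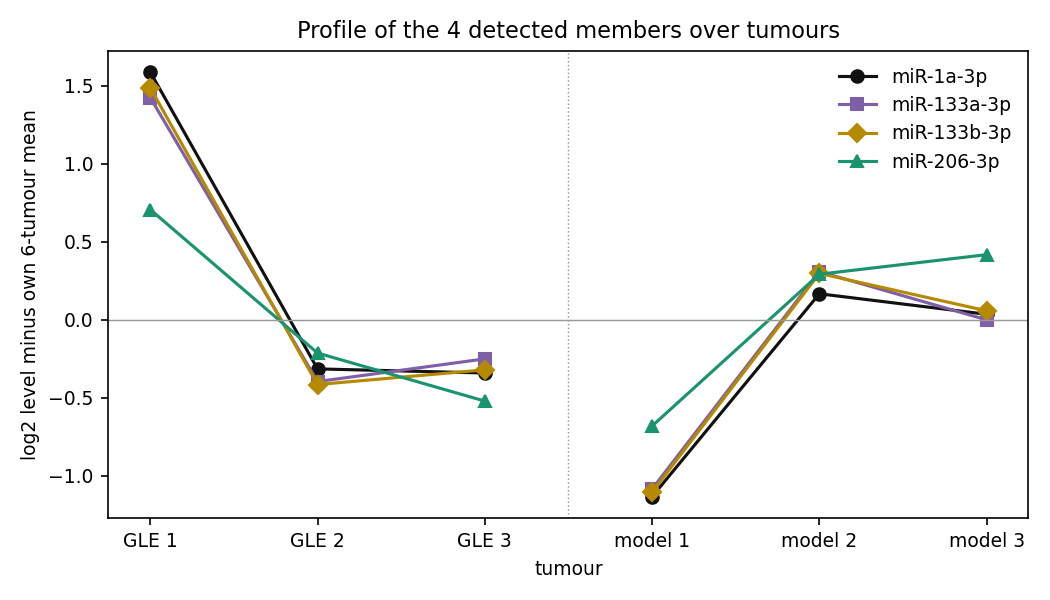
Scaled log2 level of the 4 detected members in each tumour, each miRNA set relative to its own mean over the 6 tumours. Lines join values of one miRNA within a group and imply no order of the tumours. The profiles of miR-1a-3p, miR-133a-3p and miR-133b-3p nearly coincide, highest in GLE tumour 1 and lowest in model tumour 1, while miR-206-3p has a smaller range and lies highest of the 4 in model tumour 3.

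Among themselves the members kept nearly fixed proportions, except for miR-206-3p. The log2 difference between miR-133b-3p and miR-133a-3p was 0.87, 0.79 and 0.74 in GLE tumours and 0.79, 0.80 and 0.87 in model tumours, a range of 0.13 over all 6. Between miR-133a-3p and miR-1a-3p it was -0.32, -0.24 and -0.067 in GLE tumours and -0.11, -0.016 and -0.19 in model tumours. These differences follow each tumour against the others; their size in a tumour has no meaning, since it sets one probe against another. Between groups the 2 differences moved by -0.018 (exact permutation p = 0.8) and -0.10 (exact permutation p = 0.3). The narrow range of the first carries the limit given above, that the probes of miR-133a-3p and miR-133b-3p may capture the same RNA.

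The log2 difference between miR-206-3p and miR-1a-3p was -1.84, -0.86 and -1.14 in GLE tumours and -0.51, -0.83 and -0.58 in model tumours. All GLE values lay below all model values, although -0.86 in GLE tumour 2 and -0.83 in model tumour 2 were close. With quantile normalisation the groups overlapped, at -0.78 in GLE tumour 2 and -0.85 in model tumour 2 (exact permutation p = 0.2). The mean was -1.28 ± 0.51 in GLE and -0.64 ± 0.17 in model tumours (SD, n = 3 each), a difference of -0.64. The two-sided exact permutation test gave p = 0.1, the smallest that 20 relabelings of 3 against 3 allow, so the design cannot place this difference past a threshold of 0.05. It is 1 of 4 such differences computed. The fourth, between miR-206-3p and miR-133b-3p, moved by -0.52 with overlapping groups (exact permutation p = 0.2). Between miR-206-3p and miR-1a-3p the group difference stayed negative when any one array was left out, at -0.85 to -0.36. It was smallest in size, at -0.36, without GLE tumour 1. With all arrays miR-206-3p itself differed by -0.019 between groups, so the -0.64 was mostly the miR-1a-3p difference of 0.62 with its sign turned. Without GLE tumour 1, however, miR-1a-3p differed by -0.017 and miR-206-3p by -0.38. Without model tumour 1 these differences were 0.21 and -0.36. With any other array left out, miR-1a-3p differed by 0.79 to 0.95 and miR-206-3p by 0.083 to 0.24. Which miRNA carried the group difference therefore depended on the tumours included.

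**Figure D5:**
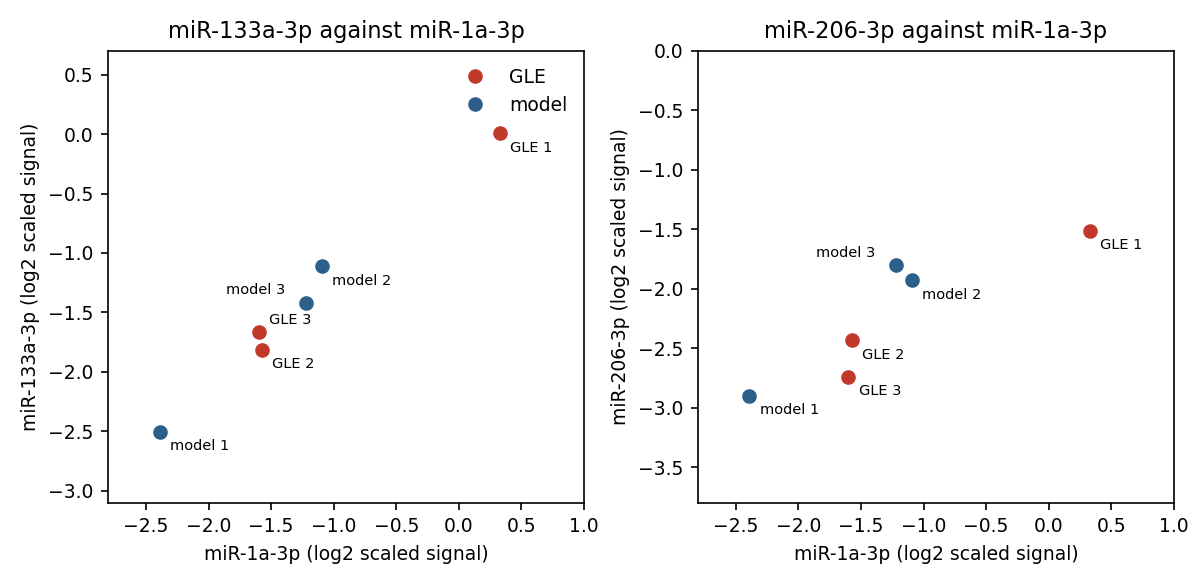
Scaled log2 signal of miR-133a-3p (left) and miR-206-3p (right) against that of miR-1a-3p in each tumour, with GLE in red and model in blue. On the left the 6 tumours lie close to a line (r = 0.994), and on the right (r = 0.88) model tumours 2 and 3 have more miR-206-3p for their miR-1a-3p than GLE tumour 1.

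Over the 384 other tested miRNAs the median r was 0.21 with miR-1a-3p and 0.10 with miR-206-3p. The 5 most like miR-1a-3p over the 6 tumours were miR-6968-3p (r = 0.87, beside 0.88 for miR-206-3p), miR-3100-3p (0.85), miR-7687-3p (0.82), miR-423-5p (0.81) and miR-7085-3p (0.79). These 5 varied far less than miR-1a-3p, with SDs of 0.090 to 0.30, but the floor limits some of these: miR-6968-3p was at the floor on 3 of the 6 arrays, and miR-3100-3p and miR-7085-3p on 1 each. The 5 most like miR-206-3p were miR-344e-3p (r = 0.80), miR-486a-5p (0.79), miR-99b-3p (0.79), miR-484 (0.78) and miR-320-3p (0.77). Among these 10, miR-486a-5p was the only one with a spread close to that of a member, with an SD of 0.56. Its scaled log2 values were -1.36, -2.29 and -2.65 in GLE tumours and -2.10, -2.09 and -1.21 in model tumours. It is abundant both in muscle and in red blood cells, and model tumour 3 was highest for it. All tumours share one slide, and the members were scaled by the same factor on each array, which these correlations share.

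Of the other miRNAs known to be enriched in muscle without being confined to it, 5 of the 7 listed were on the array under those names and tested, and 0 of the 5 passed the test by limma. Their differences were positive for 3 and negative for 2, with a median of 0.25. miR-22-3p, abundant in heart and skeletal muscle and in many other tissues, had 0.52 ± 0.22 on the log2 scale (SE), with an adjusted p of 0.937. miR-378a-3p, encoded within Ppargc1b and linked to oxidative metabolism, had 0.41 ± 0.22. miR-128-3p, known from brain and muscle, had 0.25 ± 0.22, and miR-30d-5p, which is widely made, had -0.13 ± 0.17. miR-486a-5p had -0.30 ± 0.39.

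Marker miRNAs of other cells of a flank tumour did not have the members' profile over the tumours at the adjusted threshold. Smooth muscle markers, with 2 of 4 tested (miR-143-3p and miR-145a-5p), had a mean scaled log2 level of -2.89 to -2.40 in GLE tumours and -2.90 to -2.70 in model tumours, and r = -0.16 with miR-1a-3p. Their other arms, miR-143-5p and miR-145a-3p, were detected on 0 arrays. Red blood cell markers, with 2 of 5 tested (miR-451a and miR-486a-5p), had -0.60 to 1.00 in GLE and -0.056 to 1.17 in model tumours. Their r was 0.54 with miR-1a-3p (exact permutation adjusted p = 0.733) and 0.74 with miR-206-3p (exact permutation adjusted p = 0.367), the highest of the 16 relations with markers. Without the 2 tumours farthest from the median, their r was 0.51 with miR-1a-3p and 0.80 with miR-206-3p, over 4 tumours. For the other lists this r ran from -0.94 (endothelium with miR-206-3p) to 0.39 (skin and epithelium with miR-206-3p). Of the 2 red blood cell markers tested, miR-486a-5p is also on the muscle-enriched list and among the 5 miRNAs most like miR-206-3p (r = 0.79). The mean of the red blood cell list is therefore not a marker of red blood cells alone. Fibroblast markers, with 4 of 5 tested, had -2.20 to -0.32 in GLE and -2.36 to -1.56 in model tumours, and r = 0.23 with miR-1a-3p. Immune cell markers, with 7 of 7 tested, had -1.02 to 0.38 in GLE and -1.26 to -0.66 in model tumours, and r = 0.35.

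The remaining lists were thinner. Skin and epithelial markers, with 3 of 7 tested (miR-200a-3p, miR-200b-3p and miR-429-3p), had -0.996 to 1.93 in GLE and 0.42 to 1.58 in model tumours, with r = -0.30 to miR-1a-3p. Not in this mean are miR-203-3p, detected on 4 arrays, miR-205-5p, on 1, and miR-200c-3p and miR-141-3p, on 0. The endothelial marker miR-126a-3p, 1 of 2 listed, had 1.52 to 2.00 in GLE and 1.20 to 1.44 in model tumours (r = 0.30), and fat cell markers, 2 of 2, had -2.96 to -2.29 in GLE and -3.01 to -2.78 in model tumours (r = 0.52). Hepatocyte markers, with 2 of 5 tested, had -3.82 to -0.35 in GLE and -3.97 to -2.23 in model tumours (r = -0.36). In GLE tumour 1 the level of the red blood cell list was 1.00 and that of the fibroblast list -1.20, and in model tumour 1 they were 0.16 and -2.07. The part of any of these cells in the members' values was not tested. The mean of the 4 detected members themselves was -0.075, -1.71 and -1.73 in GLE tumours and -2.38, -1.11 and -1.25 in model tumours.

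The authors' deposited table, on a log2 scale, gave the tumours the same ends. In the authors' deposited table miR-1a-3p stood at 8.29, 6.42 and 6.24 in GLE tumours and 5.73, 6.90 and 6.82 in model tumours. In the authors' deposited table miR-206-3p stood at 5.76, 4.97 and 4.56 in GLE tumours and 4.48, 5.48 and 5.47 in model tumours. The 3 heart and slow-fibre members had the lowest value of the column on every array of that table, a value that 69.2% to 75.8% of its miRNAs share.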

How the data were processed

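RNA of 6 tumours, taken with TRIzol and checked on a Bioanalyzer per the labels' protocols, was labelled with Cy3 on one-colour Agilent miRNA arrays. Per the file headers, the authors' scanner files hold intensity from Agilent Feature Extraction 10.7.1.1, background-subtracted and not normalised between arrays. The authors also deposited a log2 value per miRNA. The steps behind it are not given in the sources used here. Its columns have medians of -3.32 to -3.13, equal to their lowest values, and its centring stays unknown.

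Control spots and outlier spots, of which an array had 1401 to 1883, were removed, and the others were averaged by probe. A probe was detected where over 0.5 of its spots were well above background. Arrays were divided by their 75th percentile over 636 probes detected on all arrays, floored at -4.26 (log2), and log2 was taken. Probes detected on every array of GLE, model or both were averaged to give the miRNA. limma 3.58.1 (R 4.3.3) compared the groups over 388 miRNAs (4 residual and 3.05 prior degrees of freedom, Benjamini-Hochberg, threshold 0.05). It was tested on simulated data. Relations used exact permutation. The members, lists, and the rule for named miRNAs (members, their other arms, the muscle-enriched list, and the 5 most like miR-1a-3p and miR-206-3p) were chosen with earlier results of these data known. Each array is a separate mouse per the labels. Other scalings, background, probe and spot rules, and single arrays left out were tried.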

Additional observations from a re-analysis of the deposited data

How the results depend on the processing

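Over the 13 settings other than leaving out arrays, 0 miRNAs passed the threshold by limma in each, and the differences GLE minus model kept their sign for miR-1a-3p (0.35 to 0.70), miR-133a-3p (0.29 to 0.59) and miR-133b-3p (0.35 to 0.57). That of miR-206-3p reversed with no scaling (0.056) and with the brightest probe (0.032). Leaving out 1 array at a time gave -0.017 to 0.95 for miR-1a-3p, -0.064 to 0.85 for miR-133a-3p, -0.12 to 0.83 for miR-133b-3p and -0.38 to 0.24 for miR-206-3p, and 0 to 2 miRNAs past the threshold (2 without GLE replicate 2, where 107 had an unadjusted p under 0.05). Relations with miR-206-3p fell below the threshold with no scaling (r 0.76, 0.74 and 0.76 with miR-1a-3p, miR-133a-3p and miR-133b-3p), quantile normalisation (0.86, 0.87 and 0.87) and labelling spike-in scaling (0.76, 0.75 and 0.77); the cause was not tested. The group difference in miR-206-3p minus miR-1a-3p was -0.64 to -0.38 over 10 settings, with overlapping groups under quantile normalisation, and -0.85 to -0.36 with 1 array left out. With a replicate block there were 0 calls by limma, and the number with an unadjusted p under 0.05 was 17, against 6 without the block. The member differences were the same. Same-numbered GLE and model arrays shared a slide column (1, 3 and 4), so this block is also one for slide column. Deviations from the group mean correlated at -0.62, -0.18 and 0.37 between same-numbered samples. With 3 arrays per group these values cannot decide whether the numbers pair the samples. With 1 array left out, r was 0.985 to 0.998 (miR-1a-3p with miR-133a-3p), 0.989 to 0.998 (miR-1a-3p with miR-133b-3p), 0.997 to 1.00 (the miR-133 pair), and with miR-206-3p 0.81 to 0.94 (miR-1a-3p), 0.81 to 0.95 (miR-133a-3p) and 0.84 to 0.95 (miR-133b-3p), none past the adjusted threshold with 5 arrays. That threshold could hardly be reached with 5 arrays. A slide or scan block was not run, since there was 1 of each. The spread without scaling and with 1 array left out were alternatives chosen after seeing the data.

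The 3 arrays per group limit all comparisons. The heart and slow-fibre members were below detection on every array, so no group difference was computed for them. Slide row and group cannot be told apart, and p-values rest on the spread between 3 mice per group.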
